A study of Mus musculus with 16 samples.

Results

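The tight junction genes of mouse dorsal skin are described here. They are 9 of the 23282 gene rows of the count files, chosen by gene symbol: the claudins Cldn1, Cldn3, Cldn4, Cldn5 and Cldn7, the occludin gene Ocln, the junctional adhesion gene F11r, and the zonula occludens genes Tjp1 and Tjp3. Each symbol had 1 row in every library, and all 9 passed the filter on low counts. RNA came from wild type male C57BL/6N mice bought at 3 weeks of age and adapted for 1 week, with 4 mice in each of 4 groups and 1 library per mouse. Cont mice ate normal chow, and LowAhR mice were kept for 12 weeks on a diet low in ligands of the aryl hydrocarbon receptor (AhR), on paper bedding. LowAhR+AD mice had the same diet and, from week 2 of it onward, 1% dinitrochlorobenzene (DNCB), a hapten painted on the back skin in acetone and olive oil to give an atopic dermatitis-like inflammation. LowAhR+AD+BJ mice had the diet, DNCB and 1 g/kg per day of BJIKT, the herbal water extract Bojungikgi-tang, by gavage. Paper bedding is named only with the low ligand diet, so diet and bedding cannot be told apart. Mice painted with the vehicle alone are not described, so DNCB and painting cannot be told apart, and the 4 skin samples of a group were a random pick of its mice.

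Tight junctions seal the gap between neighbouring epithelial or endothelial cells. Claudins polymerise into the strands that close the gap, and which claudins are present sets what can pass. Occludin sits in the same strands, F11r (JAM-A) is an immunoglobulin adhesion protein beside them, and the zonula occludens proteins are scaffolds inside the cell that tie strand proteins to actin. In the epidermis the seal lies in the granular layer, where claudin-1 is needed for the water barrier, and Cldn5 is best known as the main claudin of blood vessel endothelium. AhR is a transcription factor that, once a ligand binds it, acts through DNA elements with the core GCGTG.

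The members lie apart in the genome (RefSeq, GRCm38.p6, the patch release of the mm10 build named in the submitters' processing notes). Cldn1 is on the minus strand at chr16:26356645-26371839 and Cldn5 on the plus strand at chr16:18776847-18778262. Cldn4 (minus strand, chr5:134945123-134946934) and Cldn3 (plus strand, chr5:134986214-134987476) point away from each other, with 39279 bases and 0 annotated genes between them. Cldn3, Cldn4 and Cldn5 each have 1 exon. Cldn7 is at chr11:69964779-69967886 (plus), Ocln at chr13:100496504-100552718 (minus), F11r at chr1:171437561-171464593 (plus), Tjp1 at chr7:65296165-65527850 (minus) and Tjp3 at chr10:81273188-81291581 (minus). The 3′ end of Tjp3 overlaps that of Apba3, and the 3′ end of Cldn3 overlaps the antisense gene Wbscr25, both on the opposite strand. Because these libraries read 3′ ends and the sources used here do not say whether strand was used in counting, reads of those pairs may not be separated.

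The 250 bases before the RefSeq start are shown for the 3 members whose level differed from Cont in LowAhR+AD, of which Cldn4 and F11r were higher and Cldn5 was lower. The AhR core is in capitals.
Cldn4, chr5:134946935-134947184, minus strand: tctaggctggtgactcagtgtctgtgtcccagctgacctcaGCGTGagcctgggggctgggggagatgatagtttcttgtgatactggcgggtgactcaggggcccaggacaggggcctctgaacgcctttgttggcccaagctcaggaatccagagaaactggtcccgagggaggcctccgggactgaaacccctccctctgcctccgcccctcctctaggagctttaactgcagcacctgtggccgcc
F11r, chr1:171437311-171437560, plus strand: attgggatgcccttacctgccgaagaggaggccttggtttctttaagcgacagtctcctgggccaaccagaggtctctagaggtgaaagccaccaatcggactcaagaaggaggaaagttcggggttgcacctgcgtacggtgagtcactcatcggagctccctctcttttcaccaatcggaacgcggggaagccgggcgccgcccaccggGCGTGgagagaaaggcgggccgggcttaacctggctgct
Cldn5, chr16:18776597-18776846, plus strand: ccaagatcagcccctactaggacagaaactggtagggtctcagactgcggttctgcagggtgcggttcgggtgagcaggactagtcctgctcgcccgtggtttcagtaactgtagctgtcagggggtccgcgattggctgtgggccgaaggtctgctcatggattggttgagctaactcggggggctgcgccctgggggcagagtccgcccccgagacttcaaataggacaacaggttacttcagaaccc
The core GCGTG, searched on both strands, occurs 1 time before Cldn4 and 1 time before F11r and in 28.2% of all 32851 RefSeq promoter windows of this length. It also occurs in the windows of Cldn7 and Ocln, and it is not in those of Cldn1, Cldn3, Cldn5, Tjp1 and Tjp3. The E-box CANNTG was found before Cldn1, Cldn4, F11r and Tjp3 and in 1 of the 2 windows of each of Cldn7 and Ocln (66.2% of all windows), and the GC box GGGCGG before each member except Tjp3 (32.7% of all windows). The grainyhead-like core AACCNGTT occurred only before Cldn5 among the members (1.79% of all windows). These are matches of letters and say nothing of binding.

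The libraries held 7080508 to 8773876 counts in Cont and LowAhR and 10614393 to 13467477 in both DNCB groups, without overlap. Levels are given in CPM, counts scaled to a common library size, after adjustment by TMM factors. Each transcript gives about 1 tag next to its poly(A) tail, so CPM can be compared between genes without a correction for length. LowAhR+AD replicate 1 stood apart: 38.2% of genes predicted from the other LowAhR+AD libraries at 20 to 40 counts were listed at 0 there, against at most 13.6% in the other 15 libraries. Keratinocyte transcripts marked every library as skin, with 7 basal markers summing to at least 2730 CPM, and 8 skeletal muscle markers summed to as much as 18055 CPM. Against LowAhR, LowAhR+AD had lower sums of muscle (384 to 3061 CPM against 6769 to 18055), fat (278 to 2661 against 4870 to 8890) and fibroblast markers (3898 to 22600 against 28036 to 54106), without overlap. Hair follicle sums had a higher median (13863 against 1972 CPM) but overlapped (6648 to 24338 against 95.5 to 9687), and 0 of the 10 genes were called. Against Cont (9.24 to 929 CPM) the hair follicle sums of LowAhR+AD were higher without overlap. All 10 genes were called higher there, beside 12.3% of all genes. In whole skin, fewer cells of a type and less RNA per cell cannot be told apart.

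Over all 16 libraries Cldn1 (mean 152 CPM) and F11r (139 CPM) were the most abundant members, above 92.1% and 91.2% of the tested genes. Cldn4 followed at 66.3 CPM, Tjp1 at 24.4 CPM and Cldn5 at 15.4 CPM. Ocln (8.16 CPM), Tjp3 (8.04 CPM) and Cldn3 (7.05 CPM) were low, and Cldn7 (0.969 CPM) was close to the limit of detection. Cldn1 and F11r overlapped in every group except LowAhR+AD+BJ, where Cldn1 was higher, whereas F11r lay above Cldn4 without overlap in each of the 4 groups. Cldn4 and Tjp1 overlapped only in Cont, and Tjp1 and Cldn5 in every group except LowAhR+AD+BJ. Cldn5 lay above Ocln in Cont and below it in LowAhR+AD+BJ and overlapped with it in the other groups. Ocln, Tjp3 and Cldn3 overlapped with one another in every group, except that Cldn3 lay below Tjp3 in Cont and above it in LowAhR+AD.

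**Figure D1:**
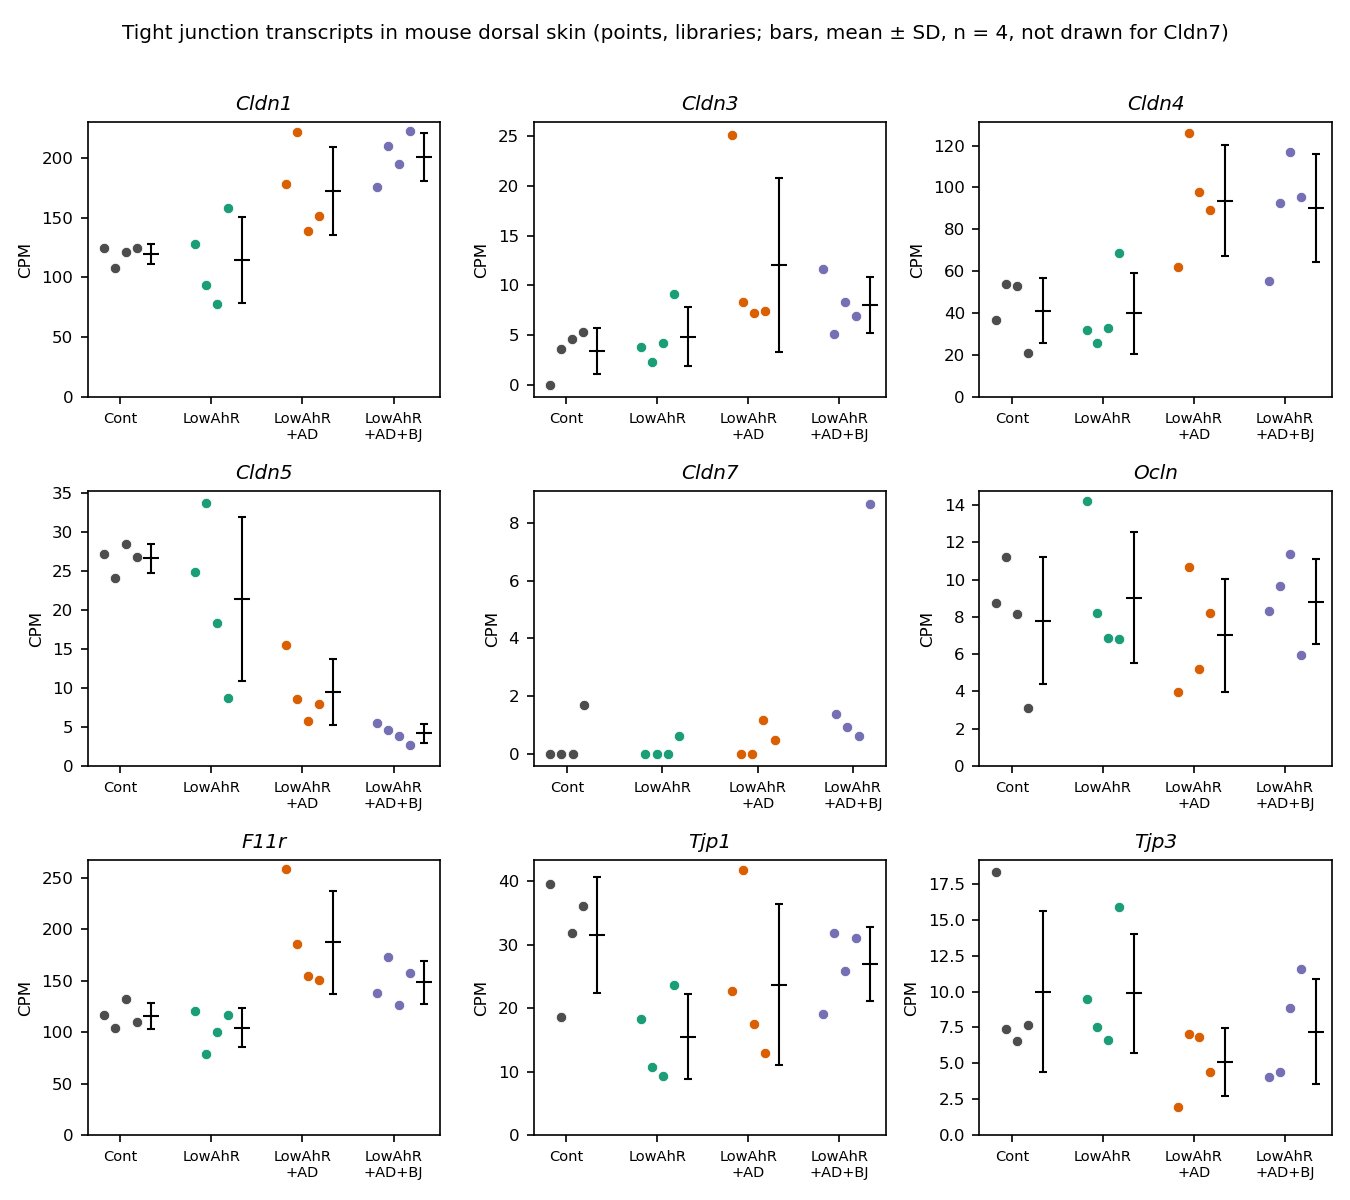
Level (CPM, linear axes) of the 9 tight junction genes in the 16 libraries. Points are libraries in the order of replicate number, bars are mean ± SD (n = 4) and are not drawn for Cldn7. Cldn4 and F11r sit higher in the LowAhR+AD libraries than in the Cont libraries, and Cldn5 falls to between 2.72 and 5.57 CPM in LowAhR+AD+BJ.

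The claudin with the most transcripts, Cldn1, was at 125, 108, 121 and 125 CPM in Cont replicates 1 to 4 and at 128, 93.7, 77.4 and 158 CPM in LowAhR. It was at 178, 222, 138 and 152 CPM in LowAhR+AD and at 175, 210, 195 and 223 CPM in LowAhR+AD+BJ. The LowAhR+AD libraries all lay above Cont but overlapped with LowAhR, and the LowAhR+AD+BJ libraries all lay above both Cont and LowAhR. Against LowAhR, Cldn1 rose in LowAhR+AD+BJ by 0.81 ± 0.22 (fitted log2 fold change ± SE, edgeR quasi-likelihood test, adjusted p = 0.0335). It was not called in LowAhR+AD against LowAhR (0.59 ± 0.22, edgeR adjusted p = 0.0825) or against Cont (0.53 ± 0.22, edgeR adjusted p = 0.0946). The call in LowAhR+AD+BJ was lost when LowAhR replicate 1, 2 or 3 or LowAhR+AD+BJ replicate 2 or 4 was left out (0.67 to 0.87, edgeR adjusted p 0.0571 to 0.109) and with only the 8 libraries compared (0.80, edgeR adjusted p = 0.0555), whereas in LowAhR+AD against LowAhR it was gained without LowAhR replicate 4 (0.79, edgeR adjusted p = 0.0254).

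Cldn4, a claudin of many epithelia, was at 36.7, 54.0, 53.1 and 21.2 CPM in Cont and at 32.2, 25.6, 32.9 and 68.7 CPM in LowAhR. It was at 61.9, 126, 97.9 and 89.1 CPM in LowAhR+AD and at 55.4, 92.8, 117 and 95.6 CPM in LowAhR+AD+BJ. Every DNCB-treated library was above every Cont library, and 1 LowAhR library, replicate 4, reached into the range of both DNCB groups. In LowAhR+AD the mean was 93.7 ± 26.4 CPM (SD, n = 4), 2.35 times that of LowAhR (39.9 ± 19.5 CPM) and 2.27 times that of Cont (41.2 ± 15.5 CPM). Cldn4 rose against LowAhR (log2 1.23 ± 0.35, edgeR adjusted p = 0.0260, 3 of 4 libraries above all LowAhR libraries) and against Cont (1.18 ± 0.35, edgeR adjusted p = 0.0201, 4 of 4). It rose to a like size in LowAhR+AD+BJ against LowAhR (1.18 ± 0.35, edgeR adjusted p = 0.0471, 3 of 4), and between the DNCB groups the difference was −0.05 ± 0.34 (edgeR adjusted p = 0.970). The call against LowAhR was lost without LowAhR replicate 1, 2 or 3 or LowAhR+AD replicate 2 (1.07 to 1.16, edgeR adjusted p 0.0708 to 0.0850) and with only the 8 libraries compared (1.23, edgeR adjusted p = 0.0631), and the call against Cont without Cont replicate 1 or 4 or LowAhR+AD replicate 2 (0.97 to 1.14, edgeR adjusted p 0.0520 to 0.0629). That of LowAhR+AD+BJ against LowAhR was lost without LowAhR replicate 1, 2 or 3 or LowAhR+AD+BJ replicate 2, 3 or 4 (1.01 to 1.16, edgeR adjusted p 0.0860 to 0.140) and with a replicate block (1.14, edgeR adjusted p = 0.0597).

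Cldn3, the neighbour of Cldn4, was at 0, 3.62, 4.57 and 5.27 CPM in Cont and at 3.79, 2.30, 4.16 and 9.07 CPM in LowAhR. It was at 25.2, 8.29, 7.23 and 7.39 CPM in LowAhR+AD and at 11.7, 5.09, 8.32 and 6.86 CPM in LowAhR+AD+BJ. The LowAhR+AD libraries were all above Cont and overlapped with LowAhR. The 0 in Cont replicate 1 stands where the other Cont libraries predict 34.9 counts. The difference of LowAhR+AD from Cont was 1.83 ± 0.78 (log2, edgeR adjusted p = 0.101), and it was 1.16 (edgeR adjusted p = 0.307) without LowAhR+AD replicate 1, the library with the value of 25.2 CPM. DESeq2 called the difference from Cont (1.84, adjusted p = 0.0444).

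Cldn7, a claudin of simple and stratified epithelia, had 0, 0, 0 and 14 counts in Cont, 0, 0, 0 and 5 in LowAhR, 0, 0, 15 and 6 in LowAhR+AD, and 15, 9, 8 and 86 in LowAhR+AD+BJ. The 3 counts that a count of 0 allows stand for 0.229 to 0.406 CPM in these libraries, and such limits cover counting error only. The LowAhR+AD+BJ libraries were above all LowAhR libraries (exact permutation test of log2 CPM, two-sided, p = 0.0286, the smallest that 4 against 4 libraries can give), but edgeR did not call the gene (adjusted p = 0.229). The nearest pair stood at only 0.622 against 0.597 CPM, from 8 against 5 counts. Because most libraries of the other groups were at 0, the fitted log2 values of Cldn7 depend on the prior count and are not read as folds.

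Cldn5, best known from endothelium, was at 27.1, 24.0, 28.4 and 26.8 CPM in Cont, with the smallest coefficient of variation of the 4 groups (6.88%). It was at 24.9, 33.7, 18.3 and 8.71 CPM in LowAhR, at 15.5, 8.62, 5.75 and 7.95 CPM in LowAhR+AD, and at 5.57, 4.58, 3.89 and 2.72 CPM in LowAhR+AD+BJ. All DNCB-treated libraries were below all Cont libraries, and all LowAhR+AD+BJ libraries were below all LowAhR+AD libraries, although by only 0.18 CPM at the nearest pair. The mean was 26.6 ± 1.83 CPM (SD, n = 4) in Cont, 21.4 ± 10.5 CPM in LowAhR, 9.45 ± 4.21 CPM in LowAhR+AD and 4.19 ± 1.20 CPM in LowAhR+AD+BJ. Cldn5 fell by 1.49 on the log2 scale in LowAhR+AD against Cont (SE 0.39, edgeR adjusted p = 0.0117) and by 2.35 in LowAhR+AD+BJ against LowAhR (SE 0.41, edgeR adjusted p = 0.00344), with 4 of 4 libraries below the other group in each. Against LowAhR the difference of LowAhR+AD was −1.18 ± 0.39 (edgeR adjusted p = 0.0555, 3 of 4 below). That of LowAhR+AD+BJ from LowAhR+AD was −1.17 ± 0.40, with an unadjusted p of 0.00860 and an adjusted p of 0.498 in edgeR, and the exact permutation test gave p = 0.0286. Without LowAhR+AD replicate 1 this last difference was −0.83 ± 0.39 (edgeR adjusted p = 0.954). Both calls held under all 10 alternative settings and without any 1 library, and the difference of LowAhR+AD from LowAhR became a call without LowAhR replicate 4 (−1.44, edgeR adjusted p = 0.0163) or without LowAhR+AD replicate 1 (−1.53, edgeR adjusted p = 0.0194). It was also a call in DESeq2 and, in edgeR, with upper-quartile factors or at least 10 counts in every library (−1.24 to −1.19, adjusted p 0.0296 to 0.0469).

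Ocln, the occludin gene, was at 8.73, 11.2, 8.14 and 3.11 CPM in Cont and at 14.2, 8.19, 6.89 and 6.80 CPM in LowAhR. It was at 3.97, 10.7, 5.21 and 8.19 CPM in LowAhR+AD and at 8.31, 9.67, 11.4 and 5.95 CPM in LowAhR+AD+BJ. All 4 groups overlapped. Its fitted differences lay between −0.36 and 0.33 in the 5 comparisons, each with a SE of 0.46, and none was called.

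F11r, the adhesion protein gene, was at 117, 104, 132 and 110 CPM in Cont and at 121, 79.0, 100.2 and 117 CPM in LowAhR. It was at 259, 186, 155 and 151 CPM in LowAhR+AD and at 138, 173, 126 and 157 CPM in LowAhR+AD+BJ. The LowAhR+AD libraries were above every library of Cont and LowAhR, and the LowAhR+AD+BJ libraries were above those of LowAhR but not all above Cont. F11r rose in LowAhR+AD against LowAhR by 0.85 ± 0.21 (log2, edgeR adjusted p = 0.0136) and against Cont by 0.69 ± 0.21 (edgeR adjusted p = 0.0230), to a mean of 187 ± 50.01 CPM (SD, n = 4) from 104 ± 19.1 and 116 ± 12.3 CPM. The difference of LowAhR+AD+BJ from LowAhR was 0.51 ± 0.21 (edgeR adjusted p = 0.151), and that from LowAhR+AD was −0.33 ± 0.21 (edgeR adjusted p = 0.614). The call against Cont was lost without LowAhR+AD replicate 1 (0.49, edgeR adjusted p = 0.0688) or Cont replicate 2 or 4 (0.65 and 0.67, edgeR adjusted p 0.0688 and 0.0588), the call against LowAhR without LowAhR replicate 2 (0.73, edgeR adjusted p = 0.0512), and both with only the 8 libraries compared (0.69 and 0.84, edgeR adjusted p 0.0586 and 0.0764).

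Tjp1, which encodes the scaffold ZO-1, was at 39.5, 18.6, 31.8 and 36.2 CPM in Cont and at 18.3, 10.8, 9.37 and 23.6 CPM in LowAhR. It was at 22.7, 41.7, 17.6 and 12.9 CPM in LowAhR+AD and at 19.1, 31.8, 25.8 and 31.1 CPM in LowAhR+AD+BJ. It was the only member with an unadjusted p under 0.05 in LowAhR against Cont, where 3 of 4 LowAhR libraries lay below all Cont libraries: the difference was −1.02 ± 0.38 (log2, edgeR p = 0.0143 and adjusted p = 0.213), and the exact permutation test gave p = 0.0571. Its difference of LowAhR+AD+BJ from LowAhR was 0.80 ± 0.38 (edgeR adjusted p = 0.222).

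Tjp3, which encodes the epithelial scaffold ZO-3, was at 18.4, 7.36, 6.54 and 7.66 CPM in Cont and at 9.47, 7.55, 6.63 and 15.9 CPM in LowAhR. It was at 1.98, 7.06, 6.84 and 4.42 CPM in LowAhR+AD and at 4.02, 4.38, 8.87 and 11.6 CPM in LowAhR+AD+BJ. The groups overlapped, and the fitted difference of LowAhR+AD was −0.97 ± 0.52 against Cont (edgeR adjusted p = 0.200) and −0.96 ± 0.52 against LowAhR (edgeR adjusted p = 0.238).

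Counted over the comparisons, LowAhR against Cont (diet and bedding) called 0 of 9 members in edgeR, against 0% of all 14854 tested genes. In edgeR 1 member had an unadjusted p under 0.05, beside 2031 of the 14854 tested genes, and 0 members were called by DESeq2 or limma voom. The lowest adjusted p of any gene there was 0.0629. No member was free of overlap between LowAhR and Cont, against 11.3% of all genes.

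With DNCB on the diet, LowAhR+AD against LowAhR, 2 members rose (Cldn4 and F11r) and 0 fell, where 6.42% of all genes were called higher and 6.21% lower. The groups did not overlap for 1 member (F11r), against 18.8% of all genes, and the median fitted difference was 0.60 over the 8 members other than Cldn7 and 0.04 over all genes. Without LowAhR+AD replicate 1 the count was 3, without LowAhR replicate 1 or 3 or LowAhR+AD replicate 2 it was 1, without LowAhR replicate 2 it was 0, without LowAhR replicate 4 it was 4, and with only the 8 libraries compared it was 0.

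LowAhR+AD and Cont differ in diet, bedding and DNCB together. Between them 2 members rose (Cldn4 and F11r) and 1 fell (Cldn5), where 12.3% of all genes were called higher and 9.47% lower. The groups did not overlap for 5 members (Cldn1, Cldn3, Cldn4, Cldn5 and F11r), against 24.7% of all genes. The median difference was 0.19 over the 8 members other than Cldn7 and 0.05 over all genes. Without LowAhR+AD replicate 1 the count was 2, and the lowest over the libraries left out in turn was 1, without Cont replicate 4.

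Adding BJIKT, LowAhR+AD+BJ against LowAhR+AD, called 0 of 9 members in edgeR and 0% of all genes, and 0 members were called by DESeq2 or limma voom. An unadjusted p under 0.05 in edgeR was found for 1 member (Cldn5) and for 1405 of the 14854 tested genes. Cldn5 was also the only member free of overlap there, against 5.08% of all genes. The lowest adjusted p of any gene was 0.193.

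LowAhR+AD+BJ against LowAhR called 2 members higher (Cldn1 and Cldn4) and 1 lower (Cldn5), where 3.64% of all genes were called higher and 3.12% lower. The groups did not overlap for 4 members (Cldn1, Cldn5, Cldn7 and F11r), against 17.1% of all genes, and the median difference was 0.62 over the 8 members other than Cldn7 and 0.01 over all genes. The count was 1 without LowAhR replicate 1, 2 or 3 or LowAhR+AD+BJ replicate 2 or 4. The comparisons with DNCB share groups, so their counts are not independent of each other.

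**Figure D2:**
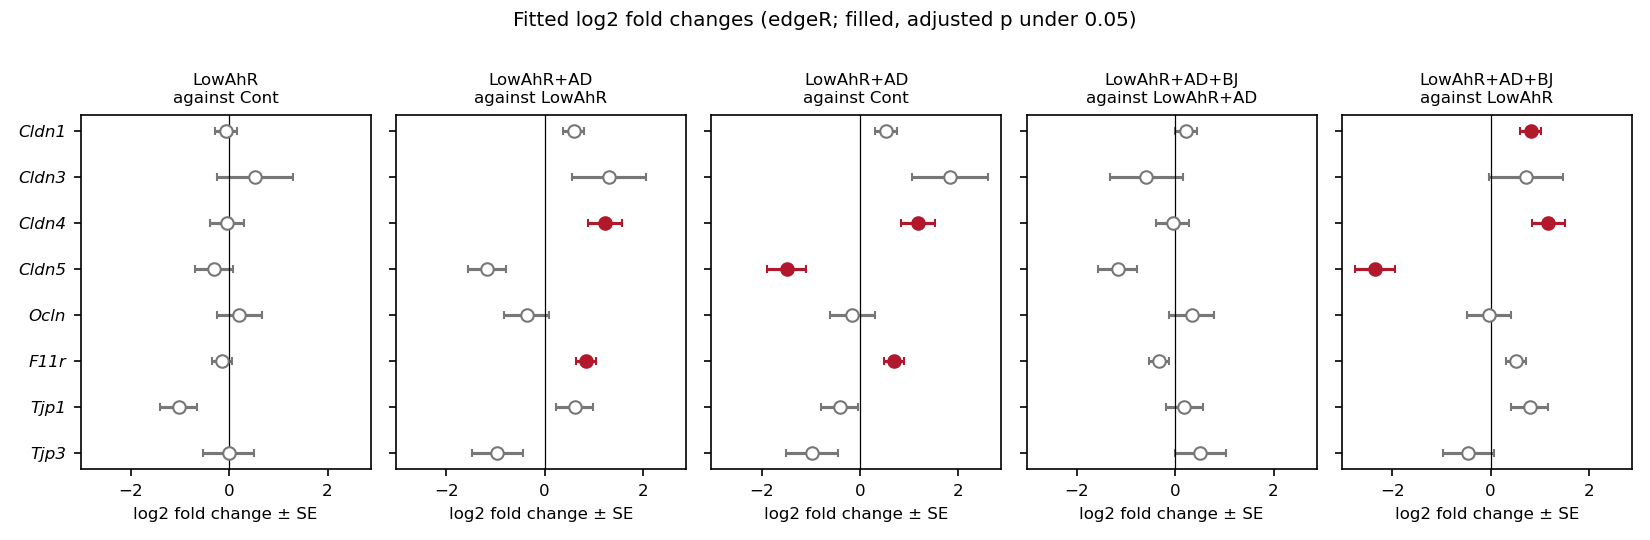
Fitted log2 fold change ± SE of 8 members in the 5 comparisons (edgeR, 16 libraries in one model). Filled points have an adjusted p under 0.05. Cldn7 is left out because most of its counts outside LowAhR+AD+BJ are 0. The panels for LowAhR against Cont and for added BJIKT hold no filled point, and Cldn5 lies furthest to the left in LowAhR+AD+BJ against LowAhR (−2.35).

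As a share of all claudin counts, Cldn1 and Cldn4 had higher means and Cldn10 and Cldn5 lower means in both DNCB groups than in Cont and LowAhR, while the sum of claudin transcripts stayed between 340 and 392 CPM in the group means. Cldn1 made up 32.8 ± 6.47% (SD, n = 4) of the claudin counts in Cont, 33.0 ± 6.48% in LowAhR, 47.2 ± 4.29% in LowAhR+AD and 52.0 ± 6.67% in LowAhR+AD+BJ. Cldn4 made up 10.9 ± 3.23%, 11.6 ± 4.60%, 25.7 ± 5.30% and 22.7 ± 3.07% in the same order. Cldn5 made up 7.26 ± 1.24%, 6.43 ± 3.13%, 2.64 ± 1.25% and 1.14 ± 0.56%. Of the claudins that are not members, Cldn10 went from 25.8 ± 10.2% and 34.1 ± 7.64% without DNCB to 8.10 ± 4.52% and 8.90 ± 3.98% with it. Cldn23, a claudin of the upper epidermis, was at 15.2 ± 1.05% in Cont, 5.32 ± 1.51% in LowAhR, 1.75 ± 1.09% in LowAhR+AD and 3.77 ± 1.93% in LowAhR+AD+BJ, so most of its drop from Cont was already there in LowAhR, and the LowAhR+AD+BJ libraries (1.23 to 5.86%) overlapped with those of LowAhR (3.20 to 6.76%). The shares of 1 library add up to a whole, so a rise of one lowers the others.

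**Figure D3:**
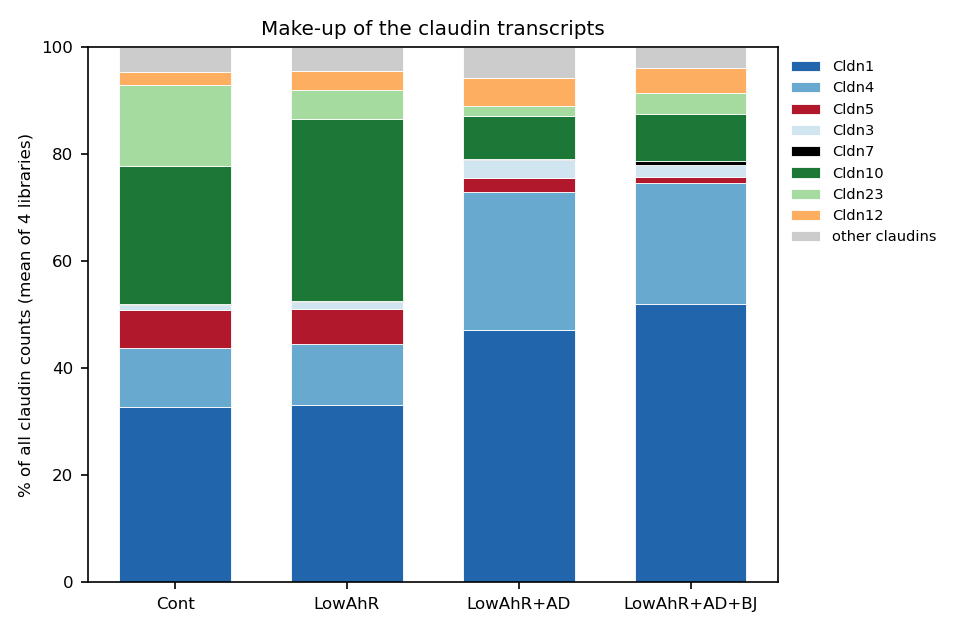
Make-up of the claudin transcripts by group: each bar segment is the mean over 4 libraries of 1 claudin's percentage of all claudin counts. Cldn1 grows from 32.8% in Cont to 52.0% in LowAhR+AD+BJ, and Cldn10 shrinks from 34.1% in LowAhR to 8.10% in LowAhR+AD.

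The fall of Cldn5 was set beside 10 other endothelial genes, whose summed level ranged from 166 to 193 CPM in Cont, 167 to 240 CPM in LowAhR, 186 to 308 CPM in LowAhR+AD and 127 to 201 CPM in LowAhR+AD+BJ, with none of the 10 at 0 throughout a group. In LowAhR+AD against Cont, where Cldn5 fell, 0 of the 10 were called lower and 1 higher, beside 9.47% and 12.3% of all genes. The gene called higher was Pecam1, an adhesion protein of endothelial junctions (log2 1.27 ± 0.34, edgeR adjusted p = 0.0118). Fitted differences of the 10 ran from −1.09 (Tek) to 1.27 with a median of 0.50, and 7 were positive. Cdh5, the cadherin of endothelial junctions, differed by 0.09 ± 0.33 there (edgeR adjusted p = 0.881). Cldn5 counts were 14.96 ± 1.08% (SD, n = 4) of the summed endothelial counts in Cont, 11.6 ± 6.72% in LowAhR, 3.81 ± 1.79% in LowAhR+AD and 2.61 ± 0.77% in LowAhR+AD+BJ. In log2 the ratio was lower by 2.10 in LowAhR+AD than in Cont and by 1.96 in LowAhR+AD+BJ than in LowAhR, without overlap in either (two-sided exact permutation tests, p = 0.0286 each). Between the DNCB groups the ratio differed by −0.46 (exact permutation test, p = 0.286), where 8 of the 10 endothelial genes had a negative fitted difference and 0 were called. The median difference of the endothelial genes between the DNCB groups was −0.81, beside −1.17 for Cldn5. Within groups, Cldn5 did not vary with these genes as a set. The correlation of log2 CPM over the 16 libraries ran from −0.73 (Vwf) to 0.73 (Robo4), with a median of −0.02. It was −0.72 for Pecam1 and −0.58 for Cdh5. Which cells the Cldn5 reads came from was not tested.

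**Figure D4:**
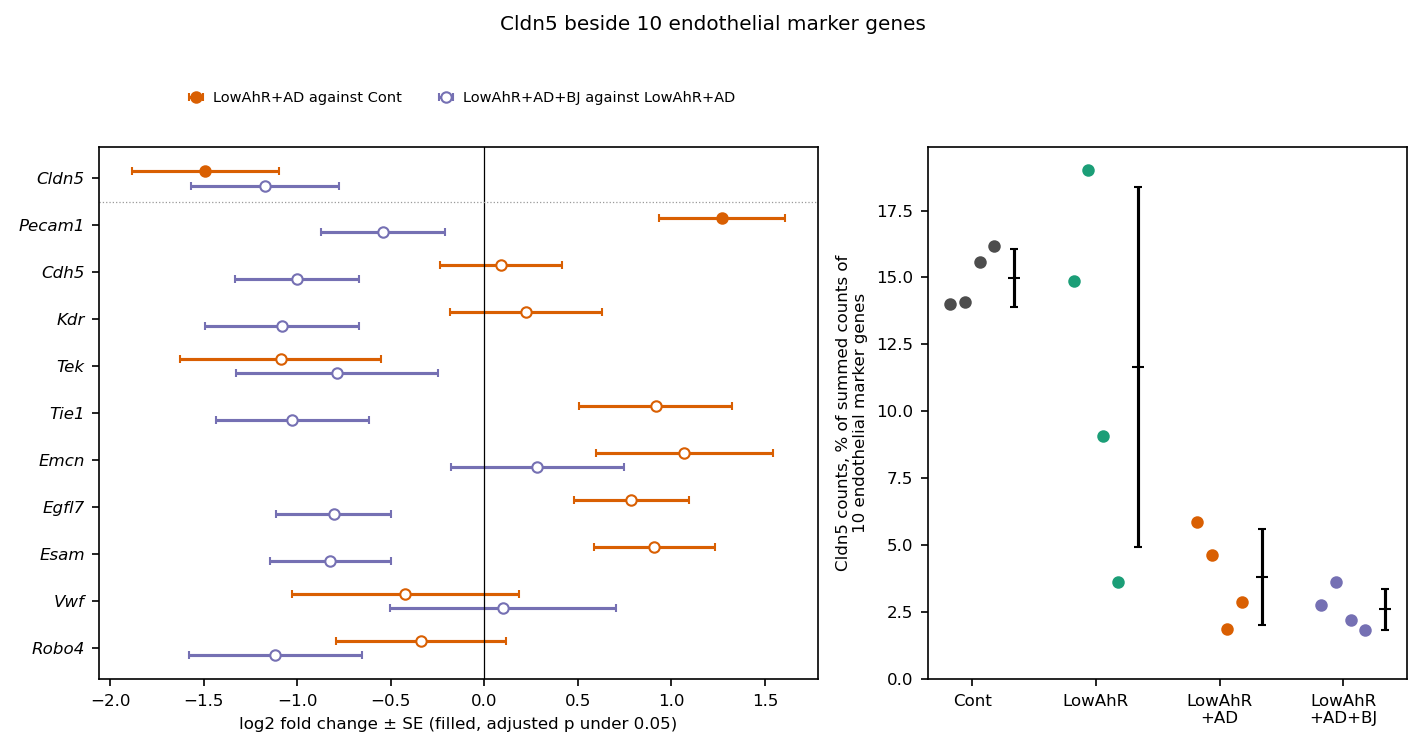
Left, fitted log2 fold changes ± SE of Cldn5 and 10 endothelial genes in LowAhR+AD against Cont (orange) and LowAhR+AD+BJ against LowAhR+AD (purple), filled where the adjusted p is under 0.05. Right, Cldn5 counts as a percentage of the summed counts of the 10 genes in each library, with mean ± SD (n = 4). In orange, Cldn5 lies left of 0, as does Tek (−1.09, not filled), and Pecam1 lies right of it (1.27, filled). The percentage drops from 14.96 in Cont to 3.81 in LowAhR+AD.

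The epithelial members were set beside keratinocyte genes in the same way. The 7 basal keratinocyte markers summed to 2730 to 3726 CPM in Cont, 2964 to 3612 in LowAhR, 5607 to 10746 in LowAhR+AD and 4987 to 7620 in LowAhR+AD+BJ. The higher sum was not a rise of all 7. In LowAhR+AD against Cont their fitted log2 differences ran from −1.78 to 2.27 with a median of 0.07, and 4 were positive. Against LowAhR they ran from −1.47 to 1.99 with a median of 0.82, and 5 were positive. The 6 suprabasal keratinocyte markers, made by the layers above the basal one, summed to 5302 to 7533 CPM in Cont, 5244 to 10846 in LowAhR, 782 to 11793 in LowAhR+AD and 4075 to 7442 in LowAhR+AD+BJ. Their median sum was lower in LowAhR+AD (3203 CPM) than in LowAhR (8231 CPM), with overlap between the groups, and the fitted differences of the 6 genes ran from −1.39 to 1.07. The 4 markers of activated keratinocytes summed to 526 to 1735 CPM without DNCB and to 11012 to 32999 CPM with it, and all 4 rose in LowAhR+AD against LowAhR. The 10 general epithelial markers moved less, at 1146 to 1290 CPM in Cont, 858 to 974 in LowAhR, 989 to 1535 in LowAhR+AD and 884 to 1488 in LowAhR+AD+BJ. Their LowAhR sums lay below all Cont sums, and the Cont sums lay within the range of LowAhR+AD. Per basal keratinocyte count, F11r was lower in LowAhR+AD than in Cont by 0.51 on the log2 scale, and per general epithelial count it was higher by 0.64, each without overlap (two-sided exact permutation tests, p = 0.0286). Against LowAhR, on the same diet, the F11r ratios of LowAhR+AD overlapped with both denominators (−0.35 and 0.39, exact permutation tests, p = 0.0857 each). In LowAhR+AD+BJ against LowAhR, F11r differed by −0.50 per basal keratinocyte count, without overlap (exact permutation test, p = 0.0286). Per general epithelial count that difference was 0.06, with overlap (exact permutation test, p = 0.714). Cldn1 differed between LowAhR+AD and LowAhR by −0.56 per basal keratinocyte count and by 0.18 per general epithelial count, with overlap in both (exact permutation tests, p = 0.114 and 0.457). Between LowAhR+AD and Cont, Cldn1 differed by 0.49 per general epithelial count, without overlap (exact permutation test, p = 0.0286). Per basal keratinocyte count Cldn1 differed from Cont by −0.67, with overlap (exact permutation test, p = 0.0857). Per general epithelial count it was higher in LowAhR+AD+BJ than in LowAhR+AD by 0.22 without overlap (exact permutation test, p = 0.0286), and per basal keratinocyte count the groups overlapped (0.40, exact permutation test, p = 0.200). Cldn4 differed between LowAhR+AD and Cont by 0.06 per basal keratinocyte count (exact permutation test, p = 0.943) and by 1.21 per general epithelial count (exact permutation test, p = 0.0571). These tests were not adjusted. So the directions of F11r and Cldn1 and the size of the Cldn4 difference depend on which epithelial transcripts they are set against. The part of these marker changes in the levels of the members was not tested.

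A list of 53 further tight junction genes was examined, of which 52 had a row and 43 passed the filter. In LowAhR+AD against LowAhR, 2 of the 43 rose (4.65%) and 4 fell (9.30%), near the 6.42% and 6.21% of all genes. With only the 8 libraries compared, 2 in place of 6 were called. The genes that rose were the polarity genes Inadl (Patj in newer annotation, log2 1.60 ± 0.41, edgeR adjusted p = 0.0177) and Pard6g (1.15 ± 0.29, edgeR adjusted p = 0.0148), both without overlap. The highest LowAhR+AD library was at 33.4 CPM for Inadl (median 12.8) and at 212 CPM for Pard6g (median 97.6). Neither was called in LowAhR+AD against Cont (edgeR adjusted p = 0.0712 and 0.263). Cgn, the plaque protein cingulin, fell by 1.92 on the log2 scale (SE 0.37, edgeR adjusted p = 0.00323), to 13.2 ± 5.42 CPM from 50.2 ± 7.92 CPM (SD, n = 4). Cldn10 fell by 1.99 (SE 0.44, edgeR adjusted p = 0.00766), the angiomotin-like gene Amotl1 by 0.83 (SE 0.19, edgeR adjusted p = 0.00971) and the polarity gene Mpp5, also called Pals1, by 0.79 (SE 0.20, edgeR adjusted p = 0.0160). The median difference over the 43 genes was −0.07.

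In LowAhR+AD against Cont, 2 of the 43 rose (4.65%, against 12.3% of all genes) and 7 fell (16.3%, against 9.47%). Cldn23 was at 51.1, 59.4, 67.1 and 49.1 CPM in Cont, at 24.3, 18.8, 16 and 12.3 CPM in LowAhR, at 2.82, 14.9, 5.52 and 3.94 CPM in LowAhR+AD and at 3.56, 14.97, 25.7 and 18.7 CPM in LowAhR+AD+BJ. It fell by 3.06 in LowAhR+AD (log2, SE 0.53, edgeR adjusted p = 0.000824). All LowAhR libraries were also below all Cont libraries, although this was not called (−1.67 ± 0.50, edgeR adjusted p = 0.130). Cldn10 (−1.79 ± 0.44), Cgn (−2.17 ± 0.37), Amot (−1.57 ± 0.34), the adhesion gene Clmp (−1.14 ± 0.31), Mpp5 (−1.01 ± 0.20) and Amotl1 (−0.60 ± 0.19) fell too, with edgeR adjusted p from 0.000725 to 0.0324. The polarity gene Crb3 rose by 2.46 ± 0.58 (edgeR adjusted p = 0.00591). Cldn14 also rose (edgeR adjusted p = 0.000763), from 0, 0, 0 and 1 counts in Cont to 27, 77, 41 and 79 counts in LowAhR+AD, with 9, 16, 4 and 40 counts in LowAhR. The median difference over the 43 genes was −0.08.

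**Figure D5:**
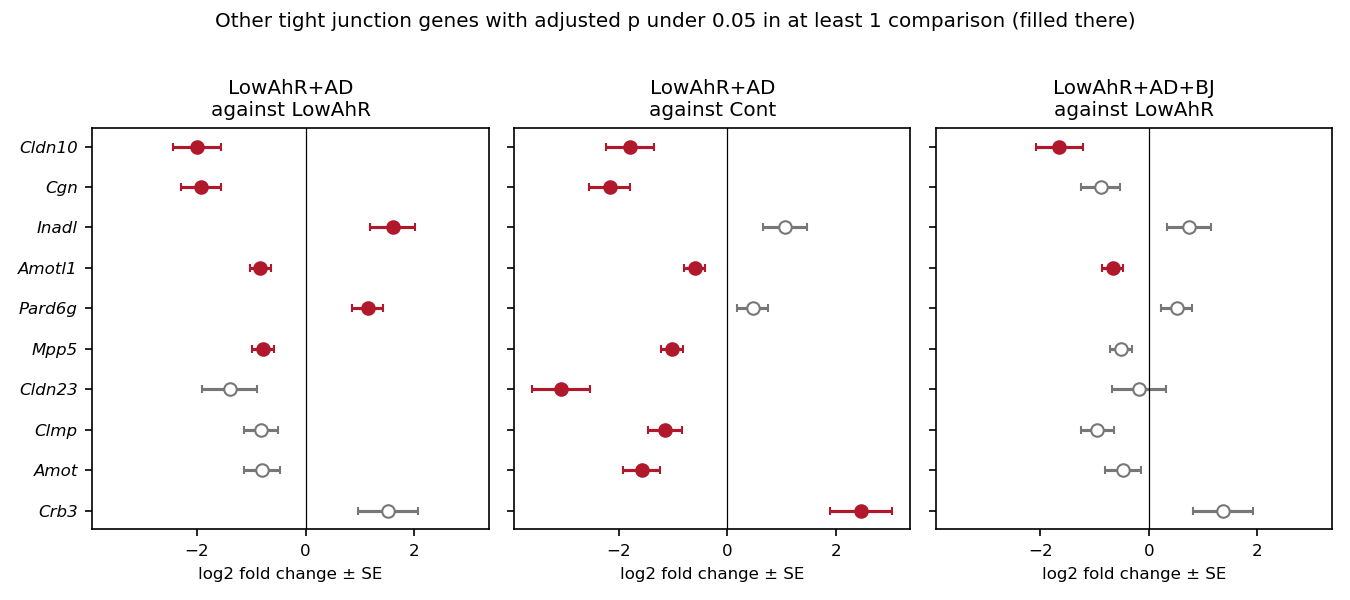
Fitted log2 fold change ± SE of 10 of the 11 further tight junction genes that passed the test in at least 1 comparison, with filled points at an adjusted p under 0.05. Cldn14 is left out because its Cont libraries hold 0 or 1 counts. Cldn10 and Amotl1 lie left of 0 and filled in each of the 3 panels, and Inadl lies right of 0 (1.60 against LowAhR).

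In the remaining comparisons few of these genes passed the test. In LowAhR against Cont and in LowAhR+AD+BJ against LowAhR+AD, 0 of the 43 were called by edgeR, with 7 at an unadjusted p under 0.05 in each. DESeq2 called 3 and limma voom 0 in the first, and both called 0 in the second. In LowAhR+AD+BJ against LowAhR, Cldn10 fell by 1.65 (log2, SE 0.44, edgeR adjusted p = 0.0309) and Amotl1 by 0.67 (SE 0.19, edgeR adjusted p = 0.0437), and 0 rose. These 2 of 43 are 4.65%, near the 3.12% of all genes that were called lower there, and 3.64% were called higher. The count was 0 without LowAhR replicate 1, 2 or 3 or LowAhR+AD+BJ replicate 1, 2 or 4, 1 without LowAhR replicate 4 and 4 without LowAhR+AD+BJ replicate 3.

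Among the 36 pairs of members, the correlation of log2 CPM within groups over the 16 libraries ran from −0.68 to 0.89 with a median of 0.08, so most members did not vary together from mouse to mouse. The highest value joined Cldn1 and Tjp1 (Pearson's r = 0.89), and each was the gene most like the other among 9388 genes of at least 10 CPM. The next most like Cldn1 were Tenm2 (0.85) and Kcne1 (0.84). Bambi (0.85), Wasf2 (0.85) and the desmosomal gene Pkp3 (0.84) were most like Cldn4. Jkamp (0.91), Rsbn1 (0.86) and Zfp512 (0.85) were most like Cldn5, and Fam173b (0.92), Fchsd1 (0.89) and Riok1 (0.87) most like F11r. These values were picked as the highest of many, and the points share library depth, so they describe these libraries only.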

How the data were processed

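Total RNA from 16 dorsal skin samples was made into QuantSeq 3′ mRNA-seq libraries and sequenced as single reads on a NextSeq machine. The authors deposited raw counts per gene symbol. The submitters' processing notes name mm10, Bowtie2 and bedtools, whereas the handling of strand and of reads with several positions is not given in the sources used here. Groups and replicate numbers came from the labels. The 9 members, the lists of further tight junction genes and of cell type markers, and the tests were chosen with earlier results of these data known. The text names the 9 members, the further tight junction genes with an adjusted p under 0.05 in at least 1 comparison and, for each member, the 3 genes with the highest correlation within groups, while endothelial and overlapping genes and Rab13, Marveld2 and Esam were named after their values were seen.

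The edgeR package (4.0.16, in R 4.3.3) was used for the main test: filterByExpr (minimum count 10, minimum total 15) kept 14854 of 23282 rows, TMM factors were computed, and glmQLFit and glmQLFTest were run on all 16 libraries in one model, with Benjamini-Hochberg adjustment over all tested genes and a threshold of 0.05. For the members, log2 CPM (prior count 2) was also compared by an exact permutation test, two-sided, in 5 comparisons (45 tests, not adjusted). 1 gene of the list of further tight junction genes is not reported here. Scripts were tested on simulated data. DESeq2 1.42.0, limma 3.58.1 (voom), other scaling factors and filters, a replicate block and leaving out each library were the alternatives. Nothing in the sources pairs mice by replicate number. Replicates of a group differed by far more than counting noise (chi-square per degree of freedom 16.4 to 285), so each library was 1 replicate. Positions and promoters came from RefSeq (GRCm38.p6) and overlapping genes from GENCODE M21, in which all 9 symbols were found.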

Additional observations from a re-analysis of the deposited data

Results flagged for a closer look

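In 6 of the 36 sets of 4 libraries (9 genes in 4 groups), 1 library was far from the other 3, with a gap to its nearest neighbour past the critical share of the range in Dixon's test, a limit that chance passes in about 1 of 20 sets. Cldn3 in LowAhR+AD replicate 1 was at 25.2 CPM against 7.23 to 8.29 CPM in the others (0.941 of the range), in the library with the most genes at an unlikely 0. Cldn4 in LowAhR replicate 4 was at 68.7 CPM against 25.6 to 32.9 CPM (0.830). Tjp3 in Cont replicate 1 was at 18.4 CPM against 6.54 to 7.66 CPM (0.905). For Cldn7 the libraries were replicate 4 of Cont (1.68 CPM against 0 in the others, 1 of the range), replicate 4 of LowAhR (0.597 CPM against 0, also 1) and replicate 4 of LowAhR+AD+BJ (8.67 CPM against 0.622 to 1.37 CPM, 0.907). With all other libraries at 0 the share is 1 whatever the count, so the Cldn7 sets of Cont and LowAhR were bound to pass. The rate of 1 in 20 does not hold for them.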

How the results depend on the processing

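The 45 log2 fold changes of the members were recomputed in 791 combinations of result and setting, of which 728 kept direction and side of the threshold, 29 turned direction, 27 lost a call and 7 gained one. No called value turned direction. The number of members called in LowAhR+AD against LowAhR went from 2 to 0 with only the 8 libraries compared and ranged from 0 to 4 with 1 library left out. It ranged from 1 to 3 with 1 library left out both in LowAhR+AD against Cont and in LowAhR+AD+BJ against LowAhR. With limma voom, Tjp3 in LowAhR against Cont was 0.067, Cldn7 in LowAhR+AD against Cont was 0.29 and Ocln in LowAhR+AD+BJ against LowAhR was 0.039. With 1 library left out, in LowAhR against Cont, Cldn1 ranged from −0.26 to 0.082, Cldn4 from −0.45 to 0.12, Cldn7 from −5.11 to 3.72, Ocln from −0.095 to 0.44 and Tjp3 from −0.34 to 0.45. In LowAhR+AD against Cont, Cldn7 ranged from −1.33 to 5.08 and Ocln from −0.43 to 0.075. In LowAhR+AD+BJ against LowAhR+AD, Cldn3 ranged from −0.83 to 0.063, Cldn4 from −0.22 to 0.12 and Tjp1 from −0.021 to 0.60. In LowAhR+AD+BJ against LowAhR, Ocln ranged from −0.17 to 0.27. The cause was not tested.

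Same-numbered libraries did not clearly deviate together (correlations from −0.17 to 0.32, and at most 2 of 4 libraries were most like their own number). With 4 libraries per group this cannot exclude that the numbers pair mice. With the replicate number as a block, Cldn7 in LowAhR+AD against Cont was 1.40, and Cldn4 in LowAhR+AD+BJ against LowAhR lost its call (1.14, edgeR adjusted p = 0.0597). The block changed no other call of a member.

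Over all genes, LowAhR against Cont had 0 calls in edgeR, 491 in DESeq2, 45 with at least 10 counts in every library and 250 with only the 8 libraries compared. LowAhR+AD against LowAhR had 765 with only the 8 libraries, LowAhR+AD+BJ against LowAhR+AD had 17 in DESeq2, and LowAhR+AD+BJ against LowAhR had 1676 in DESeq2 against 1005. Of the further tight junction genes, DESeq2 called 16 in place of 9 in LowAhR+AD against Cont and 4 in place of 2 in LowAhR+AD+BJ against LowAhR, and the 8 libraries alone gave 2 in place of 6 in LowAhR+AD against LowAhR and 1 in place of 0 in LowAhR against Cont. With 1 library left out, these counts ranged from 0 to 1 in LowAhR against Cont, 5 to 9 and 8 to 11 in LowAhR+AD against LowAhR and against Cont, and 0 to 4 in LowAhR+AD+BJ against LowAhR. Without a filter on low counts LowAhR+AD+BJ against LowAhR gave 1. Library totals without further scaling moved the median of all genes in LowAhR against Cont by −0.11. With 3 counts worth 0.229 to 0.406 CPM, the level of Cldn7 was not measurable in the 8 libraries at 0 counts, and its fitted values above depend on the prior count.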

Other observations

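LowAhR and Cont did not overlap for 5 of the 43 further tight junction genes (11.6%), near the 11.3% of all genes, and edgeR called 0 of the 43 (3 called by DESeq2 and 0 by limma voom). An unadjusted p under 0.05 in edgeR was found for 7 of the 43, beside 2031 of all 14854 tested genes. The genes named here were chosen after their values were seen. Rab13, a small GTPase of junction trafficking, was at 37.4 ± 18.9 CPM (SD, n = 4) in LowAhR and 9.90 ± 6.19 CPM in Cont (log2 1.91 ± 0.48, edgeR adjusted p = 0.0846). Marveld2, which encodes tricellulin, the strand protein of corners where several cells meet, was at 5.98 ± 1.88 CPM in LowAhR and 12.2 ± 4.40 CPM in Cont (−1.02 ± 0.45, edgeR adjusted p = 0.310). Pard6g was at 54.1 ± 14.3 CPM in LowAhR and 86.6 ± 10.5 CPM in Cont (−0.68 ± 0.28, edgeR adjusted p = 0.285). Esam, an endothelial adhesion gene that also stands among the 10 endothelial markers, was at 26.6 ± 6.44 CPM in LowAhR+AD, above all libraries of LowAhR (14.3 ± 2.72 CPM) and of Cont (14.2 ± 4.31 CPM), with edgeR adjusted p of 0.0771 and 0.0532.

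Within groups, the genes most like the lower members over the 16 libraries were Myo9b, Smad3 and Stt3a for Cldn3 (0.90, 0.90 and 0.87), Wwp1, Rbpj and Nek1 for Ocln (0.89, 0.82 and 0.78), Bnc2 and Trim59 after Cldn1 for Tjp1 (0.80 each), and Coq5, Pim3 and Pnpla1 for Tjp3 (0.84, 0.83 and 0.82). For Cldn7, with 0 counts in 8 libraries, the same measure gave Phf5a, Rpl32 and Fam104a (0.88, 0.79 and 0.79).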
